A study of Homo sapiens with 18 samples.

Results

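Knockout of p52 was set directly against knockout of RelB, the 2 subunits that form the dimer of the non-canonical NF-kB pathway, in GM12878 cells. Members were chosen by label alone: the 3 libraries labelled p52 knockout and the 3 labelled RelB knockout, 6 of the series' 18, with the 3 control libraries giving the level without a subunit knockout. GM12878 is a human B-cell line transformed by Epstein-Barr virus (EBV), and the labels give every sample the genotype "Wildtype LMP1", so none is labelled as altered in this viral protein, which keeps NF-kB active. The p52 knockout carried a stable lentiviral CRISPR guide against NFKB2, the libraries labelled RelB knockout one against RELB and the control a control guide; all were selected for 5 days in puromycin (3 µg/ml), and loss of each protein was checked by immunoblot, per the labels' protocols. Every group therefore shared EBV transformation, lentivirus and puromycin. The labels call the 3 libraries of each group biological replicates. The sources used here do not say whether they came from separate transductions, pools or clones. P-values cover no more than the spread among these libraries.

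The non-canonical pathway starts at receptors such as CD40 or the BAFF receptor, or at LMP1, which remove the brake protein TRAF3 and let the kinase NIK build up. NIK and IKKα then trigger the processing of p100, the precursor encoded by NFKB2, to p52. RelB enters the nucleus mainly bound to p52, and p100 itself holds NF-kB dimers in the cytoplasm. A null allele of NFKB2 removes the partner and the inhibitor together, whereas one of RELB leaves p100 and p52 in place.

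Values are normalised read counts, which are read counts divided by a size factor per library. Means are given ± SD with n = 3 in each group. A gene was called where limma on log2(value + 1) gave a Benjamini-Hochberg adjusted p under 0.05 over all 12381 genes with a mean of at least 10. Log2 fold changes are p52 knockout minus RelB-labelled libraries, so a positive one means higher in the p52 knockout, and fold changes are on the same scale, where the change of a gene with few reads is understated. Changes against the control are given side by side; the comparisons share the 3 control libraries.

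Recovered reads were 18.4 to 30.5 M per library in the p52 knockout, 15.2 to 23.1 M in RelB-labelled libraries and 20.9 to 37.5 M in the control. On the first principal component of all 18 libraries, with 51.1% of the variance, the p52 libraries lay at 13.5 to 18.8, the RelB-labelled ones at 49.8 to 52.7 and the controls at -26.6 to -20.8. On the second, with 13.6%, the p52 libraries lay at -24.7 to -24, the RelB-labelled ones at 16.9 to 17.6 and the controls at 2.4 to 6.5. Library 3 of the p52 knockout stood apart within its group: across genes, the rank correlation of its deviation with transcript length was -0.44, against 0.29 and 0.32 in libraries 1 and 2. Control 3 stood apart the same way (-0.53), and the RelB-labelled libraries lay at -0.22 to 0.18. B-cell markers summed to 106056 to 110138 per library in the p52 knockout, 116653 to 125259 in RelB-labelled libraries and 103909 to 105714 in the control. T and NK cell markers, 15 of 20 in the table, summed to 573 to 644 in the p52 knockout. Their sums were 808 to 860 in RelB-labelled libraries and 487 to 647 in the control. Most of each sum was NKG7, at 444 to 513 in the p52 knockout, 623 to 702 in RelB-labelled libraries and 353 to 491 in the control. Myeloid markers, 12 of 17 in the table, summed to 1009 to 1140 in the p52 knockout, 1099 to 1168 in RelB-labelled libraries and 628 to 656 in the control. Erythroid, epithelial and fibroblast markers, 9 of 14 in the table, summed to 1498 to 1682 in the p52 knockout, 1646 to 1958 in RelB-labelled libraries and 1331 to 1496 in the control. Over these 9 libraries the defining T-cell and monocyte markers CD3D and CD14 were at 0 to 2.39, whereas CD3E was at 12.4 to 24.3 and LYZ at 4.41 to 10.1. The part of these markers in the results was not tested. In bulk RNA, fewer cells of a type and less RNA per cell cannot be told apart.

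The subunit genes were examined first. NFKB2 (ENSG00000077150), which encodes p100 and p52, had 6508, 6171 and 6281 normalised read counts in the p52 knockout, 11210.2, 10994 and 10381 in RelB-labelled libraries, and 8578, 8698 and 8422 in the control. The 3 groups did not overlap, with the p52 knockout below the control and the RelB-labelled libraries above it (p52 minus RelB -0.78 in log2, SE 0.06, adjusted p = 3.4e-10 by limma). RELB (ENSG00000104856) had 4296, 4281 and 4204 in the p52 knockout, 4218, 4192 and 3911 in RelB-labelled libraries, and 3422, 3137 and 3399.7 in the control. The p52 and RelB-labelled libraries lay above every control and overlapped each other (p52 minus RelB 0.05, adjusted p = 0.51 by limma). RELB was thus higher in the libraries labelled as its knockout than in the control, by 0.31 on the log2 scale (adjusted p = 1.7e-04), and by 0.36 in the p52 knockout (adjusted p = 5.3e-05). A frameshift made by CRISPR need not lower an mRNA, so these values alone do not settle the label, and "RelB-labelled" is written throughout; each direction below rests on that label.

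REL (ENSG00000162924), the gene of cRel, had 1845, 1676 and 1097 normalised read counts in the p52 knockout, 924, 1009 and 881 in RelB-labelled libraries, and 1554, 1717 and 856 in the control. All p52 libraries lay above all RelB-labelled ones, with library 3 nearest to them (0.68, SE 0.19, adjusted p = 4.9e-03 by limma); control 3 was low as well. NFKB1, the gene of p105 and p50, had 6983, 6339.8 and 5924 in the p52 knockout against 5779, 5865 and 5738 in RelB-labelled libraries; the groups did not overlap, but the gene was not called (0.14, SE 0.06, adjusted p = 0.059). RELA had 2787, 2916 and 2364 in the p52 knockout against 2429, 2496 and 2456 in RelB-labelled libraries, with overlap, and was not called (0.12, adjusted p = 0.13). NFKB1 passed narrowly after quantile normalization, after TMM scaling, and with a replicate block, a transcript-length term or both (adjusted p = 0.0201 to 0.048). Without p52 library 3 both passed, NFKB1 at 0.20 (adjusted p = 0.0115) and RELA at 0.21 (adjusted p = 0.00469), so 3 of the 5 subunit genes were then higher in the p52 knockout rather than 1.

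REL and NFKB1 carry a match to the kB consensus within 250 bases before their start, and are shown because they are subunit genes that the family's own dimers can bind. Each is a 60-base window from the RefSeq promoter table (GRCh38.p14, plus strand), with the match in capitals; REL lies at chr2:60881503-60881562 and holds a pair of overlapping matches, and NFKB1 at chr4:102501285-102501344.
REL: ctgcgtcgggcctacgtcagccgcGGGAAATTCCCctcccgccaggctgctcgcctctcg
NFKB1: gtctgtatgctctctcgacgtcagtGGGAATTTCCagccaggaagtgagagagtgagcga
No match was found in the same window of NFKB2 or RELA, which says only that these letters are absent there.

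**Figure D1:**
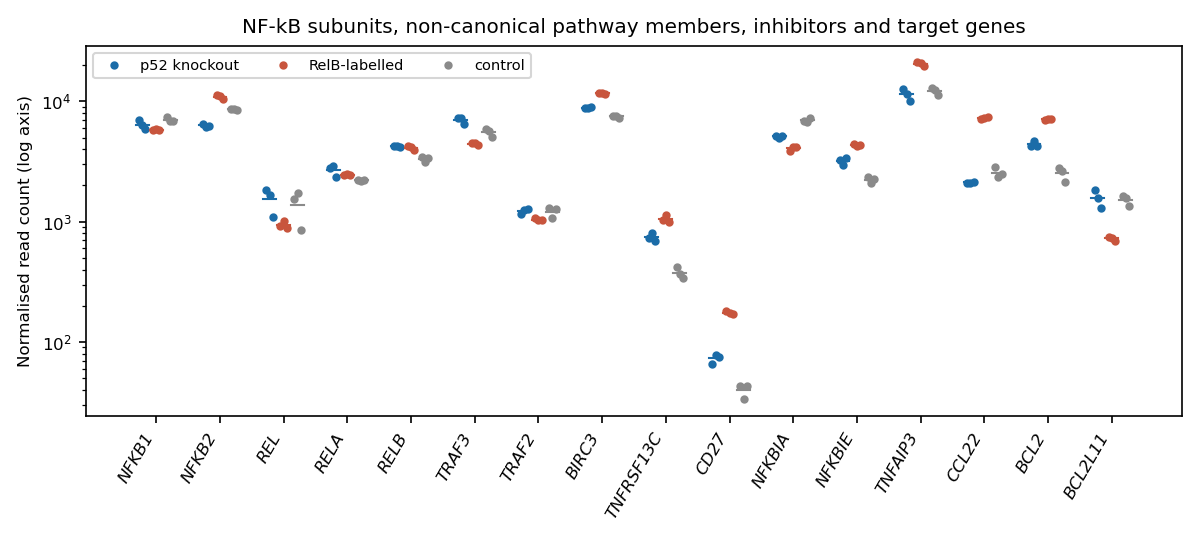
Normalised read count (log axis) of 16 NF-kB pathway and target genes in each library, with p52 knockout, RelB-labelled and control libraries from left to right for each gene; each point is 1 library and the line is the group's mean. NFKB2 lies at 6171 to 6508 in the p52 knockout and at 10381 to 11210.2 in RelB-labelled libraries, with the controls between.

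The direct comparison called 5622 of 12381 genes (45.4%). Of these, 2957 were higher in the p52 knockout (23.9%) and 2665 lower (21.5%). Differences of at least 2-fold were found in 614 genes (4.96%), 290 higher (2.34%) and 324 lower (2.62%). The libraries of the 2 groups did not overlap in 6547 genes (52.9%). Against the control, the p52 knockout differed in 6295 genes (50.8%) and the RelB-labelled libraries in 8391 (67.8%). The control mean was nearer to the p52 mean in 8605 of the 12381 genes (69.5%). Among genes at least 2-fold lower in the p52 knockout the control was nearer to p52 in 298 of 324 (92%), and among those at least 2-fold higher in 194 of 290 (66.9%). The first share was above that over all tested genes, and the second was close to it. Among all called genes the share was 81.5% for those lower and 77.5% for those higher in the p52 knockout. Beside these, the first share was above and the second below.

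**Figure D2:**
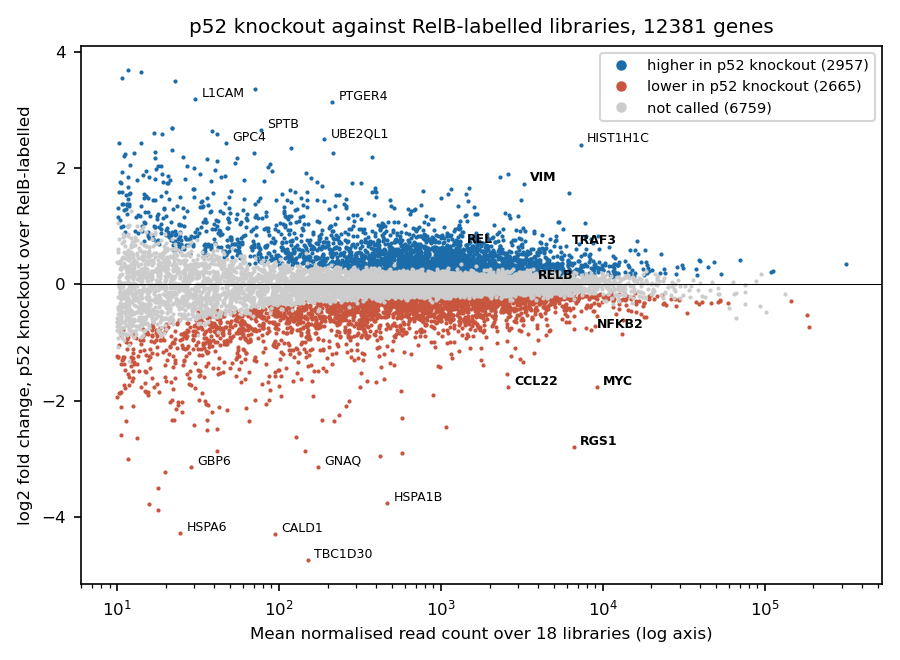
Log2 fold change p52 knockout minus RelB-labelled libraries (vertical axis) against mean level (horizontal axis, log scale) for the 12381 tested genes, 1 point per gene. Called genes lie on both sides of 0, with 290 at least 2-fold higher and 324 at least 2-fold lower in the p52 knockout.

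The largest positive difference among the named genes above a mean of 100 was L1CAM (ENSG00000198910), an immunoglobulin-family adhesion molecule. It had 91.9, 139 and 158 normalised read counts in the p52 knockout, 16, 9.56 and 14.3 in RelB-labelled libraries, and 8.82, 5.91 and 7.11 in the control (9.09-fold; a log2 difference of 3.18, SE 0.35, adjusted p = 1.7e-07 by limma). Here the p52 knockout moved off the control (3.96, adjusted p = 9.9e-09), while the RelB-labelled libraries were not called against it (0.77, adjusted p = 0.055). SPTB, the beta-spectrin of the red-cell membrane skeleton, had 226, 231 and 217 in the p52 knockout, 46.7, 27.7 and 32.7 in RelB-labelled libraries and 60.6, 56.2 and 43.9 in the control (2.65, SE 0.22, adjusted p = 1.9e-09). GPC4, a cell-surface heparan sulphate proteoglycan, averaged 110.2 ± 20.8 in the p52 knockout, 20.2 ± 8.14 in RelB-labelled libraries and 30.2 ± 3.81 in the control. These 3 surface and membrane-skeleton genes were high in the p52 knockout relative to both other groups.

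For other genes it was the RelB-labelled libraries that stood away from the control. PTGER4 (ENSG00000171522), the prostaglandin E receptor EP4, had 282, 239 and 172 normalised read counts in the p52 knockout, 39.4, 22 and 17.3 in RelB-labelled libraries, and 272, 305 and 208 in the control (8.84-fold; 3.14, SE 0.22, adjusted p = 1.6e-10 by limma). Its p52 and control libraries overlapped (-0.19 against control, adjusted p = 0.48), and all RelB-labelled libraries lay far below both (-3.33, adjusted p = 1.3e-11). HIST1H1C, a linker histone, had 6823, 6421 and 7562 in the p52 knockout, 968, 1434 and 1589.7 in RelB-labelled libraries and 6544, 6341 and 7608 in the control (5.31-fold; 2.41, SE 0.14, adjusted p = 1.1e-11). BCL6, the repressor that defines germinal-centre B cells, had 205, 223 and 134 in the p52 knockout, 40.8, 39.2 and 32.7 in RelB-labelled libraries and 199.6, 276 and 235 in the control (2.26, SE 0.15, adjusted p = 6.9e-11). The ganglioside synthase ST8SIA1 averaged 177 ± 14.9 in the p52 knockout, 46.4 ± 4.84 in RelB-labelled libraries and 163 ± 14.2 in the control. In these 4 genes the p52 mean was within 0.36 of the control on the log2 scale. Of them, BCL6 alone was called lower in the p52 knockout than in the control (-0.36, adjusted p = 0.048 by limma). The RelB-labelled libraries were 3.76-fold to 8.84-fold below the p52 knockout.

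Further genes of the 12 highest were UBE2QL1, THY1, TUBB2B and TNS3, and in each the control lay between the p52 and RelB-labelled libraries. UBE2QL1, a ubiquitin-conjugating enzyme-like protein, had 366, 349 and 389 in the p52 knockout, 67.1, 61.2 and 64.3 in RelB-labelled libraries and 163, 181 and 195 in the control (5.66-fold, adjusted p = 8.0e-14 by limma). THY1, a surface glycoprotein, had 297, 255 and 200.2 in the p52 knockout, 58.3, 46.9 and 39.8 in RelB-labelled libraries and 98.1, 104 and 113 in the control (2.35, SE 0.15, adjusted p = 5.7e-11). TNS3, a focal-adhesion protein, averaged 112 ± 15.7 in the p52 knockout, 28.5 ± 5.8 in RelB-labelled libraries and 59.4 ± 7.38 in the control. TUBB2B, a beta-tubulin with close paralogs whose reads may be shared, averaged 130.1 ± 21.9 in the p52 knockout, 31 ± 2.51 in RelB-labelled libraries and 77.5 ± 10.1 in the control.

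In each of the 12 lowest genes the control lay nearer to the p52 knockout, and the RelB-labelled libraries were high. TBC1D30, a GTPase-activating protein for Rab proteins, had 21.5, 33.5 and 25.9 normalised read counts in the p52 knockout, 752, 705 and 748 in RelB-labelled libraries, and 18.7, 14.8 and 23.3 in the control (a log2 difference of -4.74, SE 0.26, adjusted p = 4.9e-12 by limma). CALD1, the actin-binding protein caldesmon, had 21.5, 18.5 and 19.4 in the p52 knockout, 417, 389 and 413 in RelB-labelled libraries and 25.4, 31.5 and 21.3 in the control (-4.29, SE 0.17, adjusted p = 7.0e-14). Neither gene differed between the p52 knockout and the control past the test (adjusted p = 0.13 for TBC1D30 and 0.072 for CALD1). RGS1 (ENSG00000090104), which damps chemokine-receptor signalling in B cells, had 3452, 2843 and 3922 in the p52 knockout, 26439, 20568 and 23682 in RelB-labelled libraries, and 3369.9, 2694 and 3460.4 in the control (-2.79, SE 0.12, adjusted p = 2.0e-13). Its p52 and control libraries overlapped, and each RelB-labelled library was far above both.

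GNAQ, the Gq alpha subunit of receptor-coupled G proteins, had 77.6, 90.2 and 74.9 in the p52 knockout, 720.3, 710.4 and 729.6 in RelB-labelled libraries and 52.9, 61.1 and 53 in the control (-3.14, SE 0.15, adjusted p = 3.7e-13 by limma). SLC2A3, the glucose transporter GLUT3, had 248, 287 and 323 in the p52 knockout, 1852, 2257 and 2332 in RelB-labelled libraries and 194, 214 and 226 in the control (-2.91, SE 0.13, adjusted p = 2.6e-13). In both genes the p52 knockout was slightly above the control, by 0.53 (adjusted p = 4.8e-03) for GNAQ and 0.43 (adjusted p = 0.010) for SLC2A3. NRCAM, a neuronal adhesion molecule, averaged 221 ± 25.4 in the p52 knockout, 1722 ± 100.1 in RelB-labelled libraries and 136 ± 31.3 in the control. SERPINB2, the plasminogen activator inhibitor PAI-2, averaged 72 ± 10.8 in the p52 knockout, 529 ± 23.5 in RelB-labelled libraries and 63.4 ± 12 in the control, and the growth factor binding protein IGFBP2 averaged 78.6 ± 12.1 in the p52 knockout, 492 ± 66.3 in RelB-labelled libraries and 55.8 ± 18.5 in the control. The tetraspanin TSPAN11 and the interferon-induced GTPase GBP6 were 7.33-fold and 8.81-fold lower in the p52 knockout than in RelB-labelled libraries, and above the control in p52 and RelB-labelled libraries.

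Heat-shock genes were part of the same group. HSPA1B, an inducible HSP70 chaperone, had 116, 161 and 155 normalised read counts in the p52 knockout, 2918, 1768 and 1441 in RelB-labelled libraries and 142, 140.0 and 156 in the control (-3.77, SE 0.19, adjusted p = 1.3e-12 by limma). HSPA6, another inducible HSP70, had 3.58, 3.47 and 10.8 in the p52 knockout, 174, 93.7 and 106 in RelB-labelled libraries and 2.21, 1.97 and 5.17 in the control (-4.28, SE 0.52, adjusted p = 6.8e-07). Both were high in every RelB-labelled library, highest in library 1, and low in the p52 knockout and the control. HSPA1B shares most of its sequence with a neighbouring paralog, so how its reads were assigned is uncertain.

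**Figure D3:**
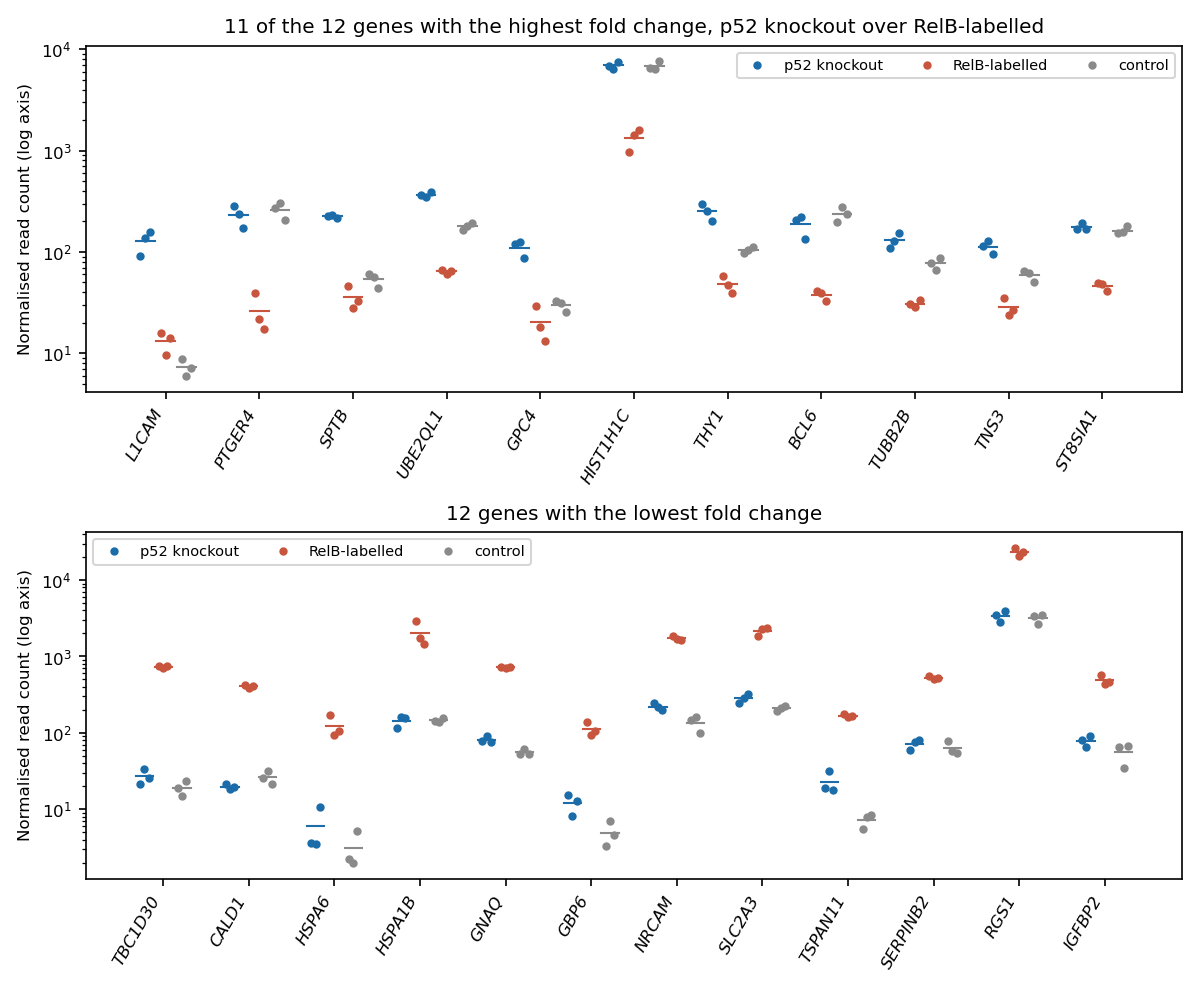
Normalised read count (log axis) of 11 of the 12 genes with the highest and the 12 with the lowest log2 fold change, 1 point per library with a line at the group's mean, and p52 knockout, RelB-labelled and control libraries from left to right for each gene. In the lowest genes the p52 and control points lie below the RelB-labelled ones, such as RGS1 at 2843 to 3922 and 20568 to 26439 in the p52 knockout and the RelB-labelled libraries.

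Promoters of the leading genes were searched on both strands, over the same 250 bases, for the kB consensus and for GGAGANTT. The latter is a loosened form, with any base at N, of a site described for RelB:p52 at mouse chemokine genes. Of the 12 highest genes, 9 matched the RefSeq table and 3 held a kB match, and of the 12 lowest 9 matched and 1 held one. Among genes at least 2-fold higher in the p52 knockout 12.9% of 194 promoters held a kB match, and 12.4% of 201 among those at least 2-fold lower, against 11.7% of the 9331 promoters of tested genes and 9.57% of all 27305. GGAGANTT was found in 4.64% and 5.47% of the same 2 sets, against 2.99% for tested genes and 3.58% for all promoters. The shares for the kB consensus were thus close to the background in both directions. The windows with a match are shown for the leading genes and for CCL22, with the match in capitals and coordinates on GRCh38.p14. They are PTGER4 at chr5:40679665-40679724, SPTB at chr14:64879930-64879989 (minus strand), UBE2QL1 at chr5:6448740-6448799, RGS1 at chr1:192575642-192575701, CCL22 at chr16:57358573-57358632 with overlapping matches, and, for GGAGANTT, HSPA1B at chr6:31827523-31827582; all but SPTB are on the plus strand.
PTGER4: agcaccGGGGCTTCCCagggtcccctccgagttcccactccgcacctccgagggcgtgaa
SPTB: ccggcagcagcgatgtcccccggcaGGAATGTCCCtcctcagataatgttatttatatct
UBE2QL1: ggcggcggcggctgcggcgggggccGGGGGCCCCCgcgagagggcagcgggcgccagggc
RGS1: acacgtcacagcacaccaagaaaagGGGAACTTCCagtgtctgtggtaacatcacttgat
CCL22: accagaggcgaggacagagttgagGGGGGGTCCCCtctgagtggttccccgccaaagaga
HSPA1B: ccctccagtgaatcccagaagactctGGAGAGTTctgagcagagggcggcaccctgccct
A match describes these letters and is not evidence of binding. The HSPA1B match has G at N, and a match to the loosened pattern need not fit the described site.

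Signalling genes of the non-canonical pathway were compared next, in order from receptor to kinase. Of 25 tested, 10 were higher in the p52 knockout and 5 lower. The share called was 60%, beside 45.4% of all genes (23.9% higher and 21.5% lower). The median log2 fold change was 0.12, against 0.00 over all tested genes. Without RelB-labelled library 2 the count of higher members was 6. TRAF3, the brake of the pathway, had 7343, 7330.4 and 6527 normalised read counts in the p52 knockout, 4466, 4499 and 4365 in RelB-labelled libraries and 5858, 5694 and 5078 in the control (0.67, SE 0.06, adjusted p = 1.6e-08 by limma). The 3 groups did not overlap, and the control lay between. Further receptor genes moved in both directions. TNFRSF11A, the receptor RANK, averaged 926 ± 79.6 in the p52 knockout, 615 ± 31.6 in RelB-labelled libraries and 834 ± 112 in the control. CD27, a TNF-family receptor of memory B cells, was lower in the p52 knockout at 65.6, 77.4 and 75.6, against 179, 173 and 170.4 in RelB-labelled libraries and 43, 33.5 and 43.3 in the control (-1.25, SE 0.15, adjusted p = 6.5e-07). BIRC3, the ubiquitin ligase cIAP2 that works with TRAF3, had 8753, 8872 and 9035 in the p52 knockout, 11674, 11676 and 11590.2 in RelB-labelled libraries and 7629.7, 7550.3 and 7302 in the control (-0.39, SE 0.06, adjusted p = 8.4e-06).

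A few more members of this list were named after their values were seen. The BAFF receptor gene TNFRSF13C averaged 741 ± 61.8 in the p52 knockout, 1050.1 ± 70 in RelB-labelled libraries and 375 ± 41.1 in the control, and was above the control in every p52 and RelB-labelled library. CD40 averaged 3663 ± 293 in the p52 knockout and 3714 ± 123 in RelB-labelled libraries, against 2309 ± 123 in the control. The p52 and RelB-labelled libraries did not differ past the test for CD40 (-0.02, adjusted p = 0.82 by limma). MAP3K14, the gene of NIK, had 1518, 1462 and 1152 in the p52 knockout and 1298, 1249.7 and 1159 in RelB-labelled libraries, with overlap (0.15, adjusted p = 0.17). CHUK, the gene of IKKα, averaged 1204 ± 39.1 in the p52 knockout, 1363 ± 72.3 in RelB-labelled libraries and 1616 ± 125 in the control (-0.18, adjusted p = 0.032). Receptor genes CD40 and TNFRSF13C were thus above the control in p52 and RelB-labelled libraries and CHUK below it.

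Canonical-pathway signalling genes split evenly, with 6 of 19 higher in the p52 knockout and 5 lower (57.9% called, beside 45.4% of all genes). Their median was -0.05. RIPK1, a kinase of TNF receptor signalling, had 653, 605 and 616 in the p52 knockout, 405, 404 and 411 in RelB-labelled libraries and 717, 690.1 and 696 in the control (0.62, SE 0.06, adjusted p = 4.9e-08 by limma). BCL10, which links the B-cell receptor to IKK, was 1.52-fold higher in the p52 knockout. In both genes the RelB-labelled libraries lay below every control. The interleukin-1 receptor kinase IRAK2 went the other way, at 543 ± 9.78 in the p52 knockout, 886 ± 33.2 in RelB-labelled libraries and 249 ± 42.8 in the control.

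Inhibitors and feedback genes of NF-kB were also divided, with 6 of 20 higher in the p52 knockout and 8 lower. Their median was 0.00, and 70% were called, beside 45.4% of all genes. TNFAIP3 (A20), a ubiquitin-editing enzyme that ends NF-kB signalling, had 12728, 11483 and 10096 normalised read counts in the p52 knockout, 21118, 21003 and 19596 in RelB-labelled libraries and 13033, 12376 and 11305 in the control (-0.85, SE 0.08, adjusted p = 1.4e-08 by limma). The p52 knockout overlapped the control, and the RelB-labelled libraries were above both. The RNase ZC3H12A was higher at 741, 732 and 596 in the p52 knockout, against 331, 406 and 362 in RelB-labelled libraries and 567, 566 and 542 in the control (0.91, SE 0.09, adjusted p = 3.4e-08). TRAF1, an adaptor, averaged 6589.8 ± 253 in the p52 knockout, 5056 ± 259 in RelB-labelled libraries and 6891 ± 101 in the control, and TNIP2, an A20-binding protein, 2378 ± 99.2 in the p52 knockout, 1732 ± 89.1 in RelB-labelled libraries and 1748 ± 70.1 in the control. So TNIP2 was raised in the p52 knockout alone relative to the control (0.44, adjusted p = 2.1e-05, against -0.01, adjusted p = 0.87, in RelB-labelled libraries).

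Genes known as RelB and p52 targets did not move one way. Of 19 tested, 4 were higher in the p52 knockout and 7 lower (57.9% called, beside 45.4% of all genes), with a median of -0.06. CCL22, a chemokine that attracts CCR4-bearing T cells, had 2117, 2111 and 2134 in the p52 knockout, 7109.9, 7274 and 7379 in RelB-labelled libraries and 2831, 2353 and 2494 in the control (-1.77, SE 0.08, adjusted p = 1.2e-13 by limma). The p52 libraries lay just below the control (-0.27, adjusted p = 5.4e-03), and the RelB-labelled ones far above it (1.51, adjusted p = 2.6e-13). CCND1, cyclin D1, had 1294, 1184 and 1077 in the p52 knockout, 618, 615 and 584 in RelB-labelled libraries and 443, 531 and 445 in the control (0.96, SE 0.09, adjusted p = 1.0e-08). The p52 and RelB-labelled libraries lay above the control for CCND1, the p52 knockout further.

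In the longer list of target genes of NF-kB in B cells that carry EBV, 36 of 47 tested genes were called, 16 higher and 20 lower in the p52 knockout, a share of 76.6% beside 45.4% of all genes; the median was 0.00. MYC, which drives growth of these cells, had 6446, 5473 and 5563 normalised read counts in the p52 knockout, 20173, 19874 and 19308 in RelB-labelled libraries and 8017, 7339 and 7983 in the control (-1.77, SE 0.09, adjusted p = 8.1e-13 by limma). Its 3 groups did not overlap, and the control was much nearer to the p52 knockout. DUSP2, a phosphatase for MAP kinases, was lower at 2551 ± 141 in the p52 knockout, against 6445 ± 333 in RelB-labelled libraries and 3466 ± 314 in the control. IER3, an immediate-early survival gene, was higher at 1345, 1329 and 1431 in the p52 knockout, against 411, 498 and 479.6 in RelB-labelled libraries and 1896, 1853 and 1945 in the control (1.57, SE 0.08, adjusted p = 7.7e-13).

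Of 24 secreted factors tested, 8 were higher in the p52 knockout and 7 lower (62.5% called, beside 45.4% of all genes). TNF had 187, 196 and 202 in the p52 knockout, 70, 80.3 and 73.5 in RelB-labelled libraries and 358, 350.0 and 432 in the control (1.38, SE 0.11, adjusted p = 1.0e-09 by limma). It was below the control in p52 and RelB-labelled libraries and lowest in RelB-labelled libraries. EBI3, a shared subunit of IL-27 and IL-35, averaged 7486 ± 300.3 in the p52 knockout, 11704 ± 481 in RelB-labelled libraries and 4598 ± 313 in the control, and the angiogenic factor VEGFA 1564 ± 90.3 in the p52 knockout, 2654 ± 220.1 in RelB-labelled libraries and 1162 ± 38.3 in the control. Both were above the control in p52 and RelB-labelled libraries and highest in RelB-labelled libraries.

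Homing and chemokine receptors, with 8 of 21 higher and 8 lower (76.2% called, beside 45.4% of all genes), held several of the larger differences. CXCR3, a receptor for interferon-induced chemokines, had 254, 239 and 186 in the p52 knockout, 72.9, 71.7 and 67.3 in RelB-labelled libraries and 530.4, 638 and 670.2 in the control (1.65, SE 0.15, adjusted p = 1.2e-08 by limma). It was below the control in p52 and RelB-labelled libraries, further in RelB-labelled libraries. GPR183 (EBI2), which guides B cells to the outer follicle, was lower at 4243 ± 281 in the p52 knockout, against 7304 ± 406 in RelB-labelled libraries and 4024 ± 233 in the control.

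Genes of the BCL2 family and other regulators of apoptosis, survival and death-promoting members together, were called in 21 of 30 (70%, beside 45.4% of all genes), with 13 higher in the p52 knockout and 8 lower (median 0.17). BCL2L11, the gene of the death-promoting protein BIM, had 1827, 1569.6 and 1302 in the p52 knockout, 751, 733 and 691 in RelB-labelled libraries and 1645, 1574 and 1349 in the control (1.10, SE 0.10, adjusted p = 9.8e-09 by limma). BCL2, which blocks BIM, had 4284, 4660.4 and 4266 in the p52 knockout, 7012, 7163 and 7133 in RelB-labelled libraries and 2812, 2621 and 2122 in the control (-0.69, SE 0.09, adjusted p = 1.7e-06). The p52 knockout thus had more BCL2L11 and less BCL2 mRNA than the RelB-labelled libraries, with BCL2 above the control in both. BCL2L2, another survival gene, averaged 317 ± 34.9 in the p52 knockout, 561 ± 15.3 in RelB-labelled libraries and 218 ± 11 in the control. The death-promoting PMAIP1 (NOXA), also a p53 target, averaged 4676 ± 420.3 in the p52 knockout, 7329 ± 240.2 in RelB-labelled libraries and 6138 ± 30.5 in the control.

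B-cell activation and costimulatory genes were mostly lower in the p52 knockout than in RelB-labelled libraries. Of 28, 16 were lower and 5 higher (median -0.26), beside 21.5% and 23.9% of all genes. CD80, a ligand of CD28 on T cells, had 1031, 1162 and 1303 in the p52 knockout, 2553, 2507 and 2622 in RelB-labelled libraries and 1037, 973 and 1024 in the control (-1.14, SE 0.08, adjusted p = 3.3e-10 by limma). CD274 (PD-L1), an inhibitory ligand, had 1079.9, 1142 and 1099 in the p52 knockout, 2111, 2306 and 2294 in RelB-labelled libraries and 654, 538 and 615 in the control (-1.01, SE 0.08, adjusted p = 1.5e-09). CD80 was near its control level in the p52 knockout, and CD274 lay between the control and the RelB-labelled libraries. So did SLAMF1, at 5602 ± 366 in the p52 knockout, 9704 ± 289 in RelB-labelled libraries and 2852 ± 219 in the control, and TNFRSF14 (HVEM), at 2840.2 ± 215 in the p52 knockout, 4713 ± 133 in RelB-labelled libraries and 1297 ± 87.6 in the control. Against the control, 15 of the 28 were higher in the p52 knockout, beside 24.5% of all genes, and 19 in RelB-labelled libraries, beside 33.1%.

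B-cell identity and receptor signalling genes had 13 of 30 lower and 6 higher in the p52 knockout, beside 21.5% and 23.9% of all genes. The count of higher members was 2 or 3 without p52 library 1 or 3 or RelB-labelled library 1 or 2. EBF1, a founding B-lineage factor, had 1552, 1629 and 1423 in the p52 knockout, 2369, 2519 and 2377 in RelB-labelled libraries and 1195, 1139.6 and 1080.0 in the control (-0.66, SE 0.07, adjusted p = 3.7e-08 by limma). CD79A, a signalling chain of the B-cell receptor, averaged 4282 ± 167 in the p52 knockout, 5928 ± 122 in RelB-labelled libraries and 5401 ± 570.5 in the control. The Ets factor SPIB was higher at 1331 ± 15 in the p52 knockout, against 899 ± 25.4 in RelB-labelled libraries and 1003 ± 105 in the control.

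Germinal-centre genes leaned the other way, with 9 of 18 higher in the p52 knockout and 3 lower, beside 23.9% and 21.5% of all genes. Their median was 0.32. Beside BCL6, the homeobox factor HHEX had 246, 279.7 and 267 in the p52 knockout, 67.1, 102 and 95.9 in RelB-labelled libraries and 567, 557 and 512 in the control (1.59, SE 0.11, adjusted p = 2.1e-10 by limma). RGS13, a regulator of G-protein signalling, averaged 72.6 ± 15.8 in the p52 knockout, 31.8 ± 2.34 in RelB-labelled libraries and 90.1 ± 2.45 in the control. Of 21 plasma-cell genes 9 were lower in the p52 knockout and 3 higher (57.1% called, beside 45.4% of all genes). Without RelB-labelled library 2 the count of higher members was 1. SDC1, the plasma-cell marker CD138, averaged 1566 ± 105 in the p52 knockout, 2349 ± 71.5 in RelB-labelled libraries and 925 ± 38.2 in the control. ELL2, an elongation factor used for antibody secretion, averaged 2329 ± 223 in the p52 knockout, 1529 ± 120.2 in RelB-labelled libraries and 2871 ± 138 in the control.

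Interferon-stimulated genes were lower in the p52 knockout in 23 of 40 and higher in 2, beside 21.5% and 23.9% of all genes. Their median was -0.32. MX1, an antiviral GTPase, had 1887, 2112 and 2023 normalised read counts in the p52 knockout, 4458, 4128 and 4199.8 in RelB-labelled libraries and 2709, 2698 and 2722 in the control (-1.09, SE 0.07, adjusted p = 1.8e-11 by limma). IFITM1, a membrane protein that blocks viral entry, had 333, 347 and 305 in the p52 knockout, 806, 804 and 979 in RelB-labelled libraries and 551, 516 and 578 in the control (-1.39, SE 0.11, adjusted p = 1.7e-09). Both lay on opposite sides of the control in p52 and RelB-labelled libraries, and so did USP18, which ends interferon signalling, at 239 ± 20.8 in the p52 knockout, 437 ± 6.04 in RelB-labelled libraries and 312 ± 15.5 in the control. Against the control, 8 of the 40 were higher and 13 lower in the p52 knockout, beside 24.5% and 26.4% of all genes. In RelB-labelled libraries 23 were higher and 6 lower, beside 33.1% and 34.7%.

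Antigen-presentation genes were also compared. Of 21 MHC class I genes 10 were lower in the p52 knockout and 1 higher (52.4% called). Of 21 class II genes 7 were lower and 3 higher (47.6% called, close to the 45.4% of all genes). Without RelB-labelled library 1 the class II genes lower in the p52 knockout numbered 4, and without library 2 the higher ones numbered 1. The furthest below among the class II genes named was IFI30, a thiol reductase of antigen processing, at 29.8, 32.4 and 28.8 in the p52 knockout, against 78.7, 76.5 and 98 in RelB-labelled libraries and 35.3, 36.5 and 33.6 in the control (-1.44, SE 0.17, adjusted p = 4.4e-07 by limma). HLA-F, a non-classical class I gene of a family whose reads may be shared, averaged 2365 ± 294 in the p52 knockout, 3798 ± 191 in RelB-labelled libraries and 1613 ± 175 in the control. The peptide-trimming enzymes ERAP2 and ERAP1 were 1.61-fold and 1.36-fold lower in the p52 knockout. The lysosomal protease CTSH was an exception, at 9882, 10184 and 11796 in the p52 knockout, against 7308, 6739 and 6842 in RelB-labelled libraries and 9542, 9598 and 10951 in the control (0.61, SE 0.07, adjusted p = 3.7e-07 by limma).

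**Figure D4:**
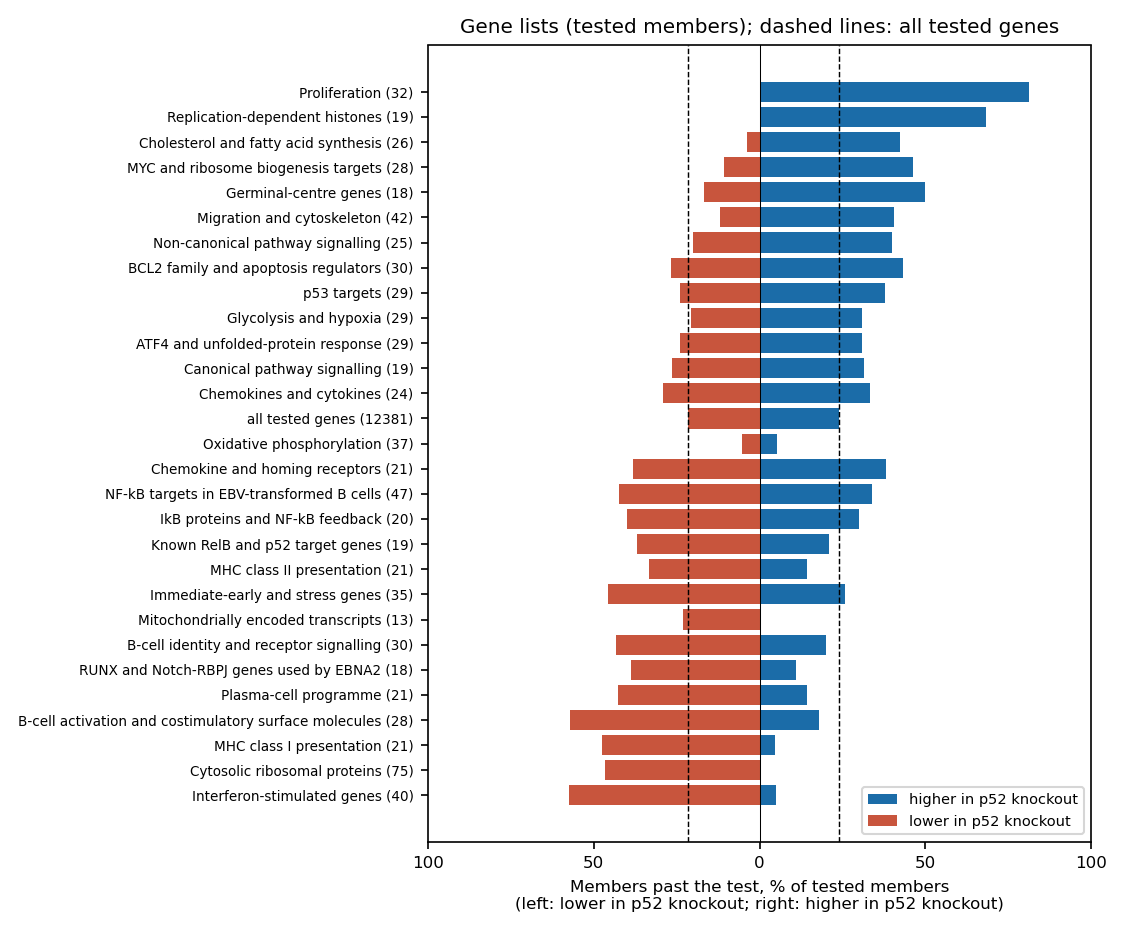
Percent of tested members (horizontal axis) of the gene lists other than the subunits and the markers of other cell types that were called higher or lower in the p52 knockout than in RelB-labelled libraries; the dashed lines mark the shares over all 12381 genes, 23.9% higher and 21.5% lower. Proliferation (26 of 32) and histone genes (13 of 19) were called on the higher side alone, and interferon-stimulated genes (23 of 40) mostly on the lower side.

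Proliferation genes were called in 1 direction alone. Of 32 tested, 26 were higher in the p52 knockout than in RelB-labelled libraries and 0 lower, beside 23.9% and 21.5% of all genes. The median was 0.35. The same counts of 26 and 0 were found by DESeq2, after quantile normalization, after the length correction and without p52 library 3. All 32 were lower than the control in both groups, beside 26.4% of all genes in the p52 knockout and 34.7% in RelB-labelled libraries. Their medians were -0.63 in the p52 knockout and -0.92 in RelB-labelled libraries. CCNB1, the mitotic cyclin B1, had 2795, 2583 and 2966 in the p52 knockout, 1760.0, 1606 and 1620.3 in RelB-labelled libraries and 4066, 4267 and 4580.5 in the control (0.74, SE 0.07, adjusted p = 9.4e-09 by limma). CDC20, which starts anaphase, averaged 2604 ± 241 in the p52 knockout, 1517 ± 7.7 in RelB-labelled libraries and 4246 ± 469 in the control. CDC6, which loads the replicative helicase, averaged 1306 ± 40.5 in the p52 knockout, 917 ± 28 in RelB-labelled libraries and 2516 ± 127 in the control. For each of these genes the 3 groups were separate and in the same order, with the control highest and the RelB-labelled libraries lowest.

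Of 19 histone genes tested, 13 were higher in the p52 knockout and 0 lower, beside 23.9% and 21.5% of all genes. Their median was 0.74. Against the control, 10 were lower and 0 higher in the p52 knockout, beside 26.4% and 24.5% of all genes. In RelB-labelled libraries 15 were lower and 0 higher, beside 34.7% and 33.1%. These libraries were made from polyadenylated RNA, which holds few replication-dependent histone transcripts, so the values describe the polyadenylated fraction. H2AFX, the variant histone of DNA-damage signalling, had 3999, 3654 and 3445 in the p52 knockout, 1788, 1813 and 1658 in RelB-labelled libraries and 6925, 7509 and 8661 in the control (1.08, SE 0.09, adjusted p = 5.2e-09 by limma). HIST1H2BK averaged 4639.8 ± 389 in the p52 knockout, 1564 ± 237 in RelB-labelled libraries and 6509 ± 998 in the control. HIST1H1C, given above, differed from them in that its p52 and control libraries overlapped. Reads of these near-identical genes may have been split among copies.

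MYC and ribosome-biogenesis targets had 13 of 28 higher in the p52 knockout and 3 lower (57.1% called, beside 45.4% of all genes). Their median was 0.14. The higher count was 8 without RelB-labelled library 1, and the lower count 1 without p52 library 3 or RelB-labelled library 2. MYC itself belongs to this list and was lower. RRS1, a ribosome assembly factor, averaged 1074 ± 47.7 in the p52 knockout, 634 ± 65.2 in RelB-labelled libraries and 1558 ± 75.2 in the control. NOP56, a nucleolar protein, averaged 4889 ± 70.4 in the p52 knockout, 3645 ± 112 in RelB-labelled libraries and 7918 ± 874 in the control. MYC was thus highest and RRS1 and NOP56 lowest in the same RelB-labelled libraries. Against the control, 24 of the 28 were lower in the p52 knockout, beside 26.4% of all genes. In RelB-labelled libraries 23 were lower, beside 34.7%. The list's medians against the control were close, at -0.46 in the p52 knockout and -0.49 in RelB-labelled libraries. Among 29 p53 targets 11 were higher in the p52 knockout and 7 lower (62.1% called, beside 45.4% of all genes). The lower count was 4 without p52 library 2 or RelB-labelled library 2. PHLDA3, an inhibitor of AKT, was higher at 1024 ± 50.9 in the p52 knockout, against 649 ± 22.2 in RelB-labelled libraries and 651 ± 39.2 in the control. The cell-cycle inhibitor CDKN1A (p21) was lower and averaged 8656 ± 165 in the p52 knockout, 11884 ± 50.9 in RelB-labelled libraries and 7929 ± 448 in the control.

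Cytosolic ribosomal protein genes were lower in the p52 knockout in 35 of 75 and higher in 0 (beside 21.5% and 23.9% of all genes). Their median was -0.25. RPS27 had 8839.8, 9050.2 and 10792 in the p52 knockout, 13042, 13615 and 15281 in RelB-labelled libraries and 7899, 7333 and 10242 in the control (-0.55, SE 0.10, adjusted p = 1.1e-04 by limma). Library 3 was the highest of each group for this gene, and the p52 knockout overlapped the control. Against the control, 6 of the 75 were higher in the p52 knockout, beside 24.5% of all genes, and 60 in RelB-labelled libraries, beside 33.1%. The count of 35 turned on single libraries: it was 66 without p52 library 3, the library rich in short transcripts, 20 and 21 without p52 libraries 1 and 2, and 19 without RelB-labelled library 3. Ribosomal protein genes took 8.03% ± 1.19 of reads in the p52 knockout, 9.24% ± 0.477 in RelB-labelled libraries and 6.75% ± 0.676 in the control, and the p52 and RelB-labelled libraries did not differ past an exact two-sided permutation test (p = 0.3; the smallest possible with 3 against 3 is 0.1). The part of transcript length in these values was not tested beyond the fit with a length term, which called 49.

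The mitochondrial genome's own transcripts took 3.77% ± 0.688 of reads in the p52 knockout, 5.11% ± 0.299 in RelB-labelled libraries and 4.31% ± 0.677 in the control (exact permutation p = 0.1, the smallest possible). Of 13 tested, 3 were lower in the p52 knockout and 0 higher, beside 21.5% and 23.9% of all genes. Without p52 library 1 the lower count was 7. MT-ND4L, a subunit of complex I, had 20511, 17509.9 and 15702 in the p52 knockout, 26866, 25296 and 27055 in RelB-labelled libraries and 16780.1, 17645 and 17999 in the control (-0.57, SE 0.11, adjusted p = 1.5e-04 by limma). The p52 knockout overlapped the control and lay below the RelB-labelled libraries. Nuclear genes of oxidative phosphorylation were called higher in 2 of 37 and lower in 2, or 10.8% beside 45.4% of all genes; each of these counts was between 0 and 6 when a library was left out.

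Immediate-early and stress genes were lower in the p52 knockout in 16 of 35 and higher in 9 (71.4% called, beside 45.4% of all genes). EGR1, an immediate-early factor, had 609.8, 504 and 593 in the p52 knockout, 3278, 3159 and 2906 in RelB-labelled libraries and 771, 693 and 951 in the control (-2.45, SE 0.12, adjusted p = 5.5e-13 by limma). In the ATF4 and unfolded-protein list 9 of 29 were higher and 7 lower (55.2% called, beside 45.4% of all genes). DDIT4, an inhibitor of mTORC1, averaged 2815 ± 127 in the p52 knockout, 6433 ± 798 in RelB-labelled libraries and 3614 ± 224 in the control, while TRIB3, a target of ATF4, averaged 1247 ± 34.5 in the p52 knockout, 813 ± 10.4 in RelB-labelled libraries and 1025 ± 39.1 in the control. Both genes lay on opposite sides of the control in p52 and RelB-labelled libraries, in opposite directions. WARS, a tRNA synthetase also induced by interferon, was lowered in the p52 knockout alone, at 4363 ± 197, against 7408 ± 20.9 in RelB-labelled libraries and 7517 ± 295 in the control.

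Of 29 glycolysis and hypoxia genes 9 were higher in the p52 knockout and 6 lower, led by SLC2A3 (51.7% called, beside 45.4% of all genes). PFKFB4, which sets the pace of glycolysis, was higher at 1766, 2126 and 1749 in the p52 knockout, against 891, 896 and 1051 in RelB-labelled libraries and 949, 661 and 672 in the control (0.99, SE 0.12, adjusted p = 4.4e-07 by limma). Of 26 cholesterol and fatty-acid synthesis genes, 11 were higher in the p52 knockout and 1 lower (46.2% called, beside 45.4% of all genes). The lower count was 2 without p52 library 2 or RelB-labelled library 2. The migration and cytoskeleton list had 17 of 42 higher and 5 lower (52.4% called, beside 45.4% of all genes). Without RelB-labelled library 1 the higher count was 11. VIM, the intermediate filament vimentin, had 4419, 4348 and 4715 in the p52 knockout, 1366, 1239 and 1439.7 in RelB-labelled libraries and 3286, 3272 and 3831 in the control (1.74, SE 0.07, adjusted p = 8.0e-14). Genes that the EBV factor EBNA2 uses through RUNX and RBPJ were lower in 7 of 18 and higher in 2. Of these 18, 50% were called, beside 45.4% of all genes, and 4 were higher without p52 library 3. RUNX3, a transcription factor that EBV-transformed B cells need for growth, was higher in the p52 knockout at 13378 ± 1320.2. It averaged 9453 ± 411 in RelB-labelled libraries and 12096 ± 688 in the control.

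**Figure D5:**
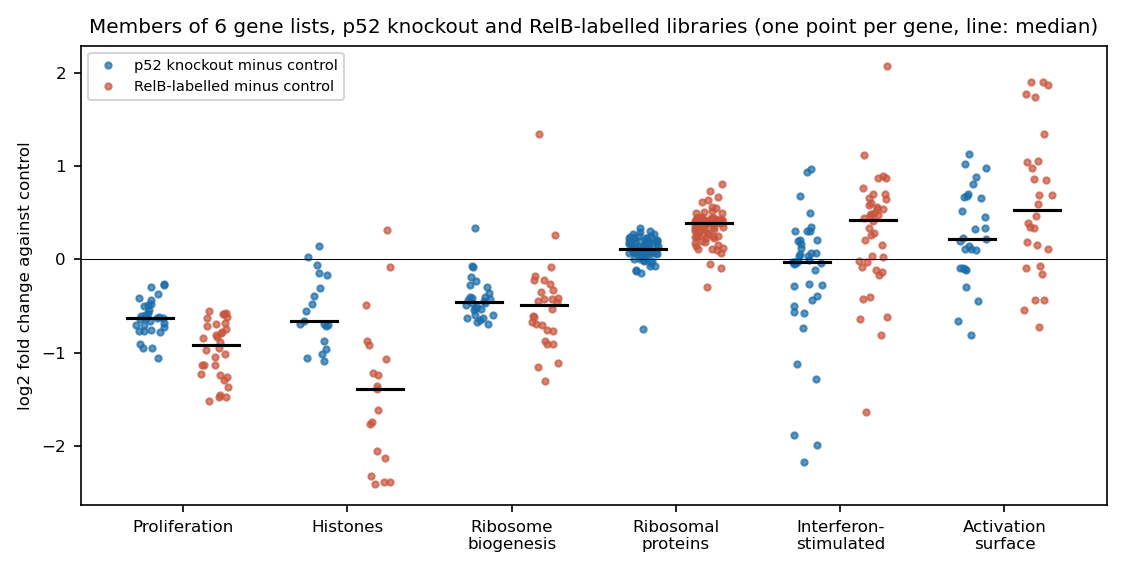
Log2 fold change against the control of each tested member of 6 gene lists, p52 knockout left and RelB-labelled libraries right for each list; points are genes and the line is the median. Proliferation genes lie below 0 in both, with medians of -0.63 in the p52 knockout and -0.92 in RelB-labelled libraries, and cytosolic ribosomal proteins have medians of 0.11 in the p52 knockout and 0.39 in RelB-labelled libraries.

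Some genes lay on opposite sides of the control in p52 and RelB-labelled libraries, and the rule named those with the largest smaller change. SORT1, a sorting receptor, had 72.8, 80.9 and 68.4 in the p52 knockout, 366, 369 and 395 in RelB-labelled libraries and 179.7, 188 and 162 in the control (-2.33, SE 0.12, adjusted p = 2.4e-12 by limma). BMP4, a morphogen of the TGF-beta family, had 4.77, 2.31 and 7.2 in the p52 knockout, 55.4, 62.1 and 63.3 in RelB-labelled libraries and 12.1, 7.89 and 11.6 in the control (-3.50, SE 0.36, adjusted p = 6.7e-08). LPHN2, an adhesion receptor, ATP1B2, a sodium-pump subunit, LAMA3, a laminin chain, and CLECL1, a lectin-like protein, shared this order at low counts, with p52 means of 3.15 to 10.6. In the other direction, COL6A1, a collagen chain, had 78.8, 63.6 and 75.6 in the p52 knockout, 16, 10.5 and 7.14 in RelB-labelled libraries and 28.7, 25.6 and 29.1 in the control (2.65, SE 0.23, adjusted p = 4.0e-09). The netrin receptor UNC5C, LRRC55 and the actin-binding CNN3 shared that order, beside THY1 and UBE2QL1. LRRC55 had 33.4, 33.5 and 15.1 in the p52 knockout and 0, 1.91 and 2.04 in RelB-labelled libraries, too few reads for a firm fold change.

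A further set changed in the p52 knockout while the RelB-labelled libraries were within 0.2 of the control on the log2 scale. FAM129C, a B-cell protein, had 180.2, 176 and 181 in the p52 knockout, 521, 439.8 and 420.4 in RelB-labelled libraries and 404, 516 and 463 in the control (-1.35, SE 0.09, adjusted p = 1.5e-10 by limma). FAM129A, HNRNPLL, a splicing factor of activated lymphocytes, GRIN2A, a glutamate receptor subunit, VDR, the vitamin D receptor, and SCN3A, a sodium channel, were 1.78-fold to 1.99-fold lower in the p52 knockout than in RelB-labelled libraries. PLEKHG1, a guanine nucleotide exchange factor, was higher at 939, 776 and 683 in the p52 knockout, against 261, 272 and 246 in RelB-labelled libraries and 268, 239 and 192 in the control (1.61, SE 0.11, adjusted p = 2.0e-10). KHDRBS3, an RNA-binding protein, CYS1, NME8, CELSR1, a planar-polarity cadherin, and RNF150 were 2.23-fold to 2.42-fold higher. In all 12 genes the RelB-labelled libraries stayed near the control by the rule that chose them.

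Finally, genes off the control in p52 and RelB-labelled libraries were named. DLL1, a ligand of Notch, had 70.4, 67 and 69.1 in the p52 knockout, 109, 137 and 106 in RelB-labelled libraries and 11, 9.86 and 9.69 in the control. The p52 and RelB-labelled libraries did not overlap (-0.75, SE 0.27, adjusted p = 0.029 by limma), but this call missed the threshold without p52 library 1, 2 or 3 or RelB-labelled library 1 or 2 (adjusted p = 0.0502 to 0.113). ATP4A, a proton-pump subunit, had 254, 354 and 297 in the p52 knockout, 121, 195 and 184 in RelB-labelled libraries and 44.1, 27.6 and 22.6 in the control. MAP7D2, a microtubule-binding protein, had 158, 212 and 239 in the p52 knockout, 181, 190.3 and 164 in RelB-labelled libraries and 45.2, 32.5 and 34.9 in the control, and the p52 and RelB-labelled libraries overlapped (0.16, SE 0.23, adjusted p = 0.59). DBNDD1, TMCC2 and SPATA31D1 were 1.54-fold, 1.85-fold and 1.54-fold lower in the p52 knockout than in RelB-labelled libraries, and above the control in both.

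Among genes below the control in both, PRDM1, the plasma-cell factor BLIMP1, had 357, 451 and 329.7 in the p52 knockout, 315, 284 and 314 in RelB-labelled libraries and 830.4, 979 and 899.7 in the control. The p52 and RelB-labelled libraries were separate but close (0.30, SE 0.10, adjusted p = 0.015 by limma). The call missed the threshold without p52 library 2 (adjusted p = 0.148) or RelB-labelled library 2 (0.0724). It also missed it in the limma fit of the 6 p52 and RelB-labelled libraries alone (adjusted p = 0.054). BCAR3, an adaptor of integrin signalling, averaged 140.4 ± 60.4 in the p52 knockout, where library 1 was high, 44.9 ± 4.49 in RelB-labelled libraries and 389 ± 15 in the control. The fructose transporter SLC2A5 averaged 509 ± 40.8 in the p52 knockout, 563 ± 59.8 in RelB-labelled libraries and 1368 ± 81.6 in the control, with overlap between the p52 and RelB-labelled libraries (-0.14, adjusted p = 0.13; called without p52 library 1, adjusted p = 0.0485, or RelB-labelled library 1, adjusted p = 0.0158). C3orf20 overlapped as well (-0.42, adjusted p = 0.063; 0.0149 without p52 library 2, 0.0342 without RelB-labelled library 3, 0.0345 with a replicate block and 0.0274 with the block and a transcript-length term), and FAM135B averaged 65.2 ± 7.84 in the p52 knockout, 36.3 ± 19.2 in RelB-labelled libraries and 149 ± 7.88 in the control.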

How the data were processed

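Polyadenylated RNA from 18 libraries of GM12878 was made into directional (stranded) libraries, per the labels' protocols. The submitters' processing notes name STAR 2.5.2b, the build GRCh37, featureCounts 1.5.1 and DESeq2 1.14.1. The sources used here do not give the annotation release or the use of strand in counting, so antisense and overlapping genes cannot be told apart from their partners. The deposited table holds a normalised signal for 17155 genes. The size factors were inferred from it, by taking each library's smallest positive value as a single read. Division by that value gave whole reads for 100% of 308790 values, within 0.001. Mean chi-square per gene between replicates was 5.1 to 34, so replicates differed by more than counting error.

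Groups were compared by limma 3.58.1 (trend = TRUE, two-sided) on log2(value + 1), in a single fit of all 18 libraries with a mean per group. Alternatives included edgeR 4.0.16 and DESeq2 1.42.0 on the recovered reads, run in R 4.3.3. The fit was also run on data simulated with 200 changed genes and no replicate or length effect. That setting differs from these data, so the run does not measure error rates here. Transcript lengths came from GENCODE 29, for 99.85% of tested genes, and promoters from RefSeq on GRCh38.p14; no coordinates of the authors' build are printed.

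The text names the 5 subunit genes, the 12 highest and 12 lowest called fold changes with non-overlapping libraries and a higher mean of at least 100, from each list the called members with the smallest p, at most 4, and 6 genes each way for 3 patterns relative to the control. Some genes of these sets are given only within a list count or range, and some are not reported here. Members, lists and rules were chosen with earlier results of these data known. The 32 lists held 937 entries, of which 882 were in the table and 815 were tested.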

Additional observations from a re-analysis of the deposited data

How the results depend on the processing

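The 5622 genes called between the p52 knockout and the RelB-labelled libraries stayed within 1.5 times under every alternative run: 4784 of 9847 genes with a mean of at least 100, 5746 without a filter, 5660 with a pseudocount of 5, 5764 after quantile normalization, 5614 after TMM scaling, 5120 with the 6 libraries alone, 5667 by edgeR, 5545 by DESeq2 and 6049 with a transcript-length term. Leaving out 1 library gave 4896 to 5374. The share of called genes higher in the p52 knockout was 51.5% to 54.8%. For the p52 knockout against the control, leaving out 1 library gave 5443 to 6281, and for the RelB-labelled libraries against the control 7873 to 8552. Same-numbered p52 and RelB-labelled libraries had deviations correlated at 0.112, 0.035 and 0.203, so the numbers were not treated as pairs, although 16 of the 18 libraries correlated best with their own number, a hint from the data and not the design. With a replicate block 5892 genes were called, and with the block and the length term 6395; against the control the block gave 6557 for the p52 knockout and 8557 for the RelB-labelled libraries.

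Of 161 named genes under 17 settings, 149 kept their side of the threshold wherever they were tested and 0 reversed (132 of the 161 passed the filter of a mean of at least 100); 8 lost their call under some setting (MT-CO1, NDUFB7, COX7C, NDUFV1, LCK, ITGAM, DLL1 and PRDM1) and 4 gained one (NFKB1, RELA, SLC2A5 and C3orf20). Of 1088 list counts, 76 moved by over 1.5 times. The share of the 10 most abundant genes was 6.45% ± 0.35 in the p52 knockout and 7.18% ± 0.18 in RelB-labelled libraries, a difference of -0.727 percentage points (exact permutation p = 0.1, the smallest possible), with -0.929 to -0.614 when 1 library was left out. It reversed to 0.206 with mitochondrially encoded transcripts left out of the total; the cause was not tested. The difference was -1.73 to -1.1 for mitochondrially encoded transcripts and -1.87 to -0.723 for ribosomal proteins when 1 library was left out, and -1.39 for ribosomal proteins without mitochondrial reads. Depth limits the genes with few reads, such as HSPA6 and LRRC55.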

Other observations

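Among called genes whose higher group mean was at least 1000, the 15 with the largest difference each way were listed after their values were seen. Several were enzymes and surface molecules that no list held. CDH17, a cadherin, had 3291, 3125 and 2963 normalised read counts in the p52 knockout, 973, 755 and 782 in RelB-labelled libraries and 3547, 3212 and 3072 in the control (p52 minus RelB 1.91 in log2, SE 0.08, adjusted p = 1.2e-13 by limma). The lipid- and proton-responsive receptor GPR132 averaged 1621 ± 161 in the p52 knockout, 509 ± 20.5 in RelB-labelled libraries and 1754 ± 155 in the control. In both genes the p52 knockout was near the control. PVRL1, the adhesion molecule nectin-1, lay above the control in the p52 knockout and below it in RelB-labelled libraries, at 3658 ± 343 in the p52 knockout and 1024 ± 149 in RelB-labelled libraries, against 2250.2 ± 99.9 in the control.

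On the other side, PIM2, a survival kinase of B cells, had 2206, 2482 and 2533 in the p52 knockout, 7171, 6796 and 7111 in RelB-labelled libraries and 1461, 1159 and 1337 in the control (-1.55, SE 0.10, adjusted p = 1.2e-10 by limma). ZFP36, which destabilises cytokine mRNAs, averaged 642 ± 30 in the p52 knockout, 2390.0 ± 78.4 in RelB-labelled libraries and 677 ± 92.5 in the control. CD200, an inhibitory surface ligand, averaged 946 ± 70.5 in the p52 knockout, 2498 ± 116 in RelB-labelled libraries and 504 ± 46 in the control. PIM2 and CD200 were above the control in p52 and RelB-labelled libraries, and ZFP36 in RelB-labelled libraries alone.

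By gene family, again after the values were seen, 5 of 7 tested GIMAP genes were higher in the p52 knockout and 0 lower (median 0.28). These are GTPases of lymphocyte survival. Of 5 beta-tubulin genes with a digit after TUBB in the symbol, 4 were higher and 0 lower (median 1.07). The gene TUBB itself was outside this set. Zinc-finger genes with a ZNF symbol were higher in 146 of 414 and lower in 57 (median 0.11). Genes annotated as antisense were lower in the p52 knockout in 63 of 230 and higher in 12 (median -0.26), and lincRNA genes lower in 46 of 180 and higher in 20 (median -0.18), against 21.5% lower and 23.9% higher over all genes; how the authors' counting treated strand is not given.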
